A study of Mus musculus with 16 samples.

Results

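The dependence of the dextran sulfate sodium (DSS) response on genotype was measured as a difference of 2 differences. For each bacterial genus, family or amplicon sequence variant (ASV, a distinct 16S sequence), the change on DSS against water in MERTK-/- mice (KO) was set against the same change in wild-type mice (WT). All 16 libraries of the series entered the comparison, 4 mice in each of 4 groups. KO mice on DSS and WT mice on DSS drank water with 2.5% (w/v) DSS for 7 days, and KO mice on water and WT mice on water drank sterile water for the same time. Both genotypes had the C57BL/6J background, were kept specific pathogen-free and entered the experiment at 8 to 10 weeks of age. The distal colon was taken on day 8, and its bacteria were profiled by 16S sequencing. The deletion is named in the sample titles and for the mouse as a whole, while the genotype tag of every sample, KO included, gives only the C57BL/6 strain. No cage or litter is given, and the genotype cannot be checked in bacterial counts. Of 147 genus-level groups, 72 families and 1901 ASVs in the table, 123 genera, 57 families and 1056 ASVs reached a total of 10 or more counts, spread over 3 or more libraries. These were tested, and the genera left out held 0.0122% of all counts.

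MERTK, a receptor tyrosine kinase of macrophages, drives the engulfment of dying cells and limits inflammatory signalling. DSS, a sulfated polysaccharide, damages the lining of the colon, and mice given it develop colitis. In the healthy colon, strict anaerobes ferment fibre to short-chain fatty acids such as butyrate, while genera that tolerate oxygen stay rare and can bloom when the epithelium is inflamed. An interaction between genotype and treatment is present where the fold by which DSS changed a taxon was unequal in KO and in WT mice. A positive log2 interaction means that DSS against water gave a higher ratio in KO mice, whatever the direction in either genotype.

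Every library held 96469 counts, and 0 counts in a library leave room for a share of up to 0.00311% by counting error alone. Counts per mouse are therefore given as deposited and can be compared directly between mice. Because the totals are equal, a lower count of 1 genus cannot be told apart from a higher count of the others. Genus-level groups include 115 named genera, which held 59.1% of counts. The remaining groups collect ASVs without a genus name under their lowest named rank, written here as unclassified.

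KO and WT mice had more ASVs in common on DSS than on water. On DSS, 440 ASVs were seen in both genotypes, 53.9% of the 817 of KO mice and 48.1% of the 914 of WT mice. On water, 325 were seen in both, 41.7% of the 779 of KO mice and 32.0% of the 1017 of WT mice. Many ASVs without a count in a genotype on water appeared in its DSS mice at a few percent of their level in the DSS mice of the other genotype. Of 87 ASVs without a count in KO mice on water and with at least 0.1% in WT mice on DSS, 67 were seen in KO mice on DSS, 43 of them in every mouse. Over all 87, including the 20 not seen, the level in KO mice on DSS had a median of 2.79% of that in WT mice on DSS (quartiles 1.08% and 4.06%). Of the 87, 74 lay under 5%, those not seen included. In the other direction, 72 ASVs had no count in WT mice on water and at least 0.1% in KO mice on DSS. Of these, 55 were seen in WT mice on DSS, 30 in every mouse. Over all 72, including the 17 not seen, the median was 2.02% of the KO level (quartiles 0.562% and 3.11%), and 65 lay under 5%. A further set had at least 0.1% in WT mice on water and no count in WT mice on DSS or KO mice on water. Of these 19 ASVs, 2 were seen in KO mice on DSS. The matching count for WT mice on DSS was 1 of 16. Summed over the 74 ASVs under 5%, the shares were 1.22% to 1.4% of a library in KO mice on DSS. Over the 65 of the other direction they were 0.891% to 1.09% in WT mice on DSS. How these counts came about was not tested. Each interaction was also fitted with every ASV set to 0 in a DSS group where its mean did not reach 5% of its mean in the DSS mice of the opposite genotype. That fit, called traces set to 0 below, removed 84 ASVs and 1.895% of counts from KO mice on DSS, and 86 ASVs and 1.207% from WT mice on DSS. By construction it lowers the DSS ratio of an ASV in the genotype where that ASV was lower on DSS. A smaller p in that fit is therefore not read as support for a call. Where the main ASVs of a taxon lay under that 5%, a lost call or turned sign in that fit also follows from its construction. Such a loss or turn is not read as a result against the call.

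**Figure D1:**
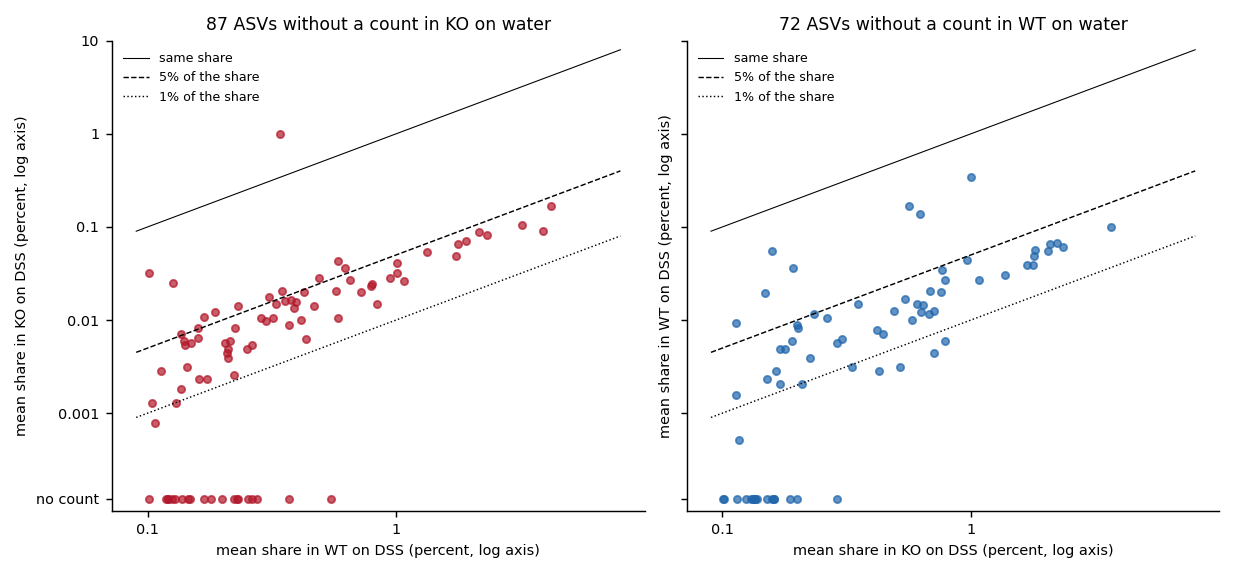
Mean share of ASVs (percent of counts, log axes) in the DSS group of the genotype that lacked them on water, against the DSS group of the other genotype; each point is 1 ASV and those without a count are drawn at the bottom. On the left, 74 of 87 points lie under the dashed line of 5%, and on the right 65 of 72 do.

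The DSS response differed between KO and WT mice in 11 of 123 genera (8.94%) at a false discovery rate of 0.05 in edgeR's quasi-likelihood test. It was higher in KO mice in 6 of them (4.88%) and lower in 5 (4.07%), and 22 genera had an unadjusted p under 0.05. Among families 8 of 57 passed (14.0%), 5 higher (8.77%) and 3 lower (5.26%) in KO mice, with 12 under an unadjusted p of 0.05. Among ASVs 59 of 1056 passed (5.59%), 33 higher (3.12%) and 26 lower (2.46%), with 196 under an unadjusted p of 0.05. The family split depended on the scaling: with TMM factors 4 families were higher and 0 lower, and with centred log-ratios 8 were higher and 9 lower. Centred log-ratios with a pseudocount of 1 gave 9 and 9. With traces set to 0, 8 genera passed, of which 7 were among the 11. Without WT DSS mouse 3 the number of genera was 7, and without KO water mouse 4 it was 18.

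The terms behind the interaction were broader than the interaction itself. DSS changed 40 genera in KO mice (32.5%) and 39 in WT mice (31.7%), 17 in both genotypes, 23 in KO mice alone and 22 in WT mice alone by that threshold. No genus passed in both with opposite signs. KO and WT mice differed in 27 genera on DSS (22.0%) and in 49 on water (39.8%). Of the 11 genera with an interaction, 7 passed the DSS test in KO mice alone, 4 in WT mice alone and 0 in both.

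**Figure D2:**
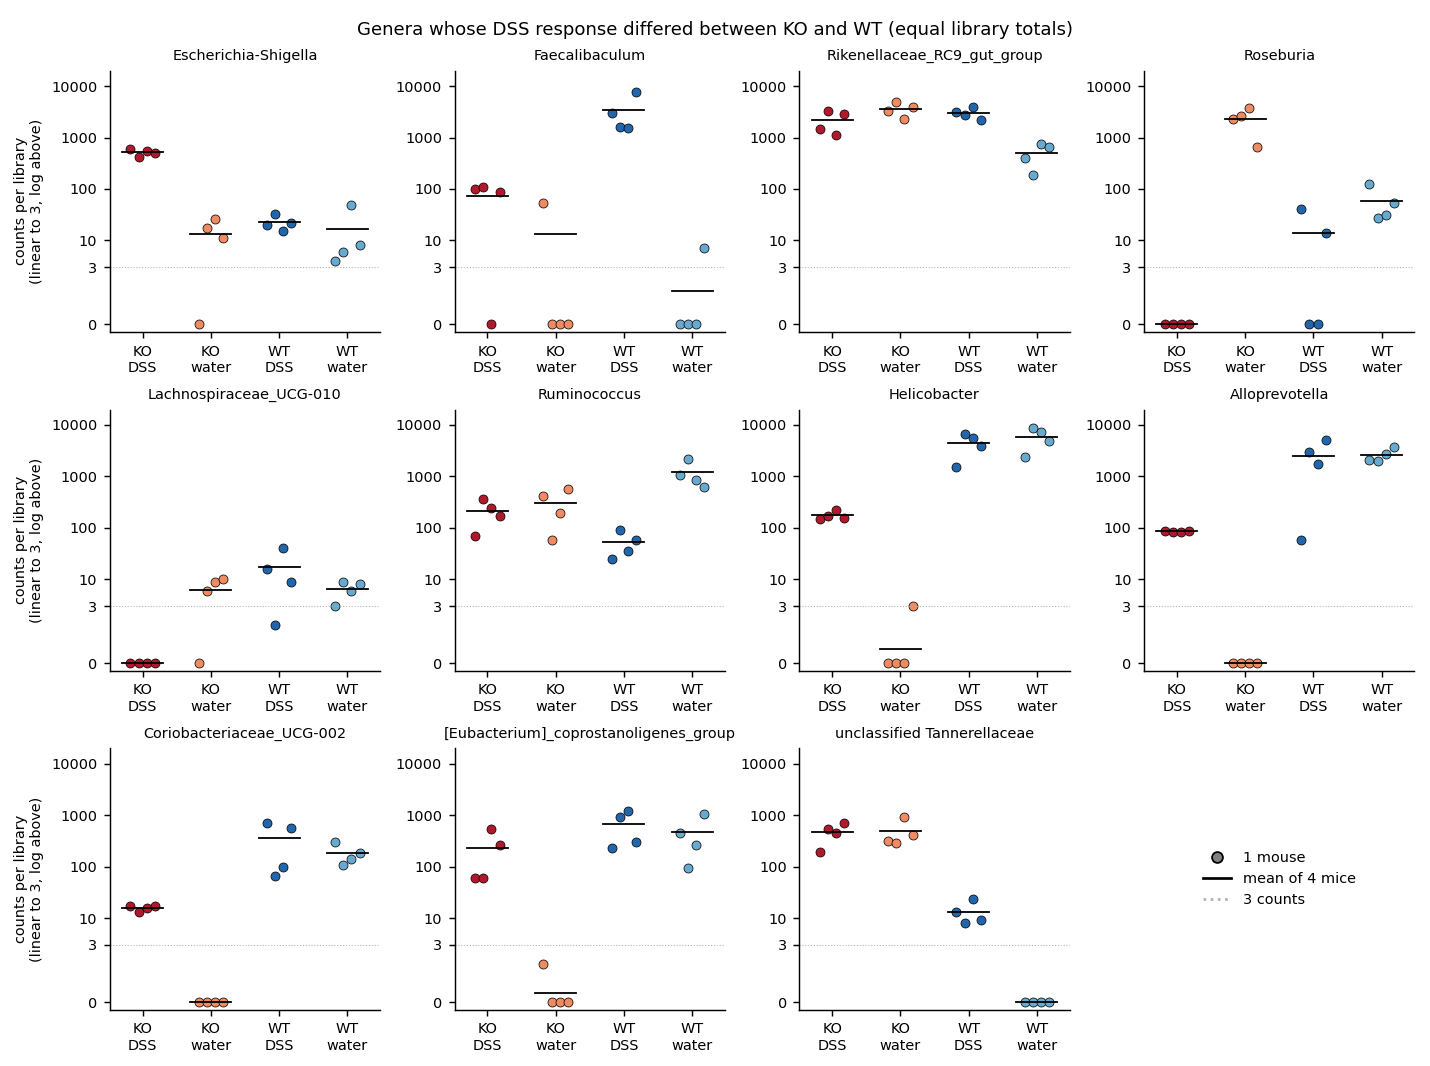
Counts per mouse of the 11 genera with an interaction, in libraries of equal total; the axis is linear up to 3 counts and logarithmic above, bars are means of 4 mice. Escherichia-Shigella stands at 412 to 600 counts in KO mice on DSS and at most 49 in the other groups, and Roseburia is without a count in KO mice on DSS.

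Escherichia-Shigella, facultative anaerobes that use oxygen and nitrate in the inflamed gut, rose on DSS in KO mice. It had 600, 412, 550 and 491 counts in KO mice on DSS and 0, 17, 26 and 11 in KO mice on water, against 20, 32, 15 and 22 in WT mice on DSS and 4, 6, 49 and 8 in WT mice on water. All 4 KO mice on DSS lay above all other mice, and the other 3 groups overlapped. The mean was 38.0-fold higher on DSS in KO mice (adjusted p = 0.00115) and 1.33-fold higher in WT mice (adjusted p = 0.769). The interaction was 4.83 on the log2 scale (SE 1.36, 95% interval 1.98 to 7.68, adjusted p = 0.0280), a ratio of 28.6. Its WT level on DSS was 4.34% of the KO level. The call was lost without KO DSS mouse 1 (adjusted p = 0.0551), WT DSS mouse 1 (0.0515), WT DSS mouse 3 (0.0593) or WT water mouse 3 (0.135). Without WT water mouse 3, whose 49 counts were the highest of its group, the ratio was 10.3. Its family, Enterobacteriaceae, held almost only this genus and had an interaction of 4.70 (SE 1.38, adjusted p = 0.0324), which was not called in 5 of 16 fits without 1 mouse.

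Those 5 fits were without KO DSS mouse 1 (adjusted p = 0.0559), KO water mouse 2 (0.0583), WT DSS mouse 1 (0.0613), WT DSS mouse 3 (0.0553) or WT water mouse 3 (0.128). The family ratio was 26.2, and 9.38 without WT water mouse 3. With centred log-ratios its adjusted p was 0.0703.

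Faecalibaculum, a rodent member of the Erysipelotrichaceae that ferments sugars, rose on DSS in WT mice. It had 101, 107, 0 and 86 counts in KO mice on DSS and 53, 0, 0 and 0 in KO mice on water, against 3023, 1598, 1549 and 7667 in WT mice on DSS and 0, 0, 0 and 7 in WT mice on water. The lowest WT mouse on DSS held more than 10 times the highest KO mouse. Summed over mice, WT mice had 13837 counts on DSS and 7 on water, a ratio of 1980 with a counting interval of 959 to 4920 (adjusted p = 0.00214). In KO mice the ratio was 5.55 (adjusted p = 0.290), and their DSS level was 2.12% of the WT level. The interaction had an adjusted p of 0.0353 and a DSS ratio 208-fold lower in KO mice, with means under 3 counts set to 3. It was not called in 10 of 16 fits without 1 mouse: the adjusted p was 1.0 without KO water mouse 1 (47.1-fold lower), 0.0583 without WT DSS mouse 4 (124-fold lower), and 0.0515 to 0.0893 without KO DSS mouse 1, 2 or 4, WT DSS mouse 1 or 3, or WT water mouse 1, 2 or 3. All of the DSS counts came from a single variant, ASV16.

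Rikenellaceae_RC9_gut_group, an uncultured group of anaerobes related to Alistipes, also rose in WT mice, and its interaction was called in every alternative that was run and without any 1 mouse. Its counts were 1483, 3224, 1124 and 2927 in KO mice on DSS and 3207, 4901, 2253 and 3888 in KO mice on water, against 3082, 2754, 3880 and 2170 in WT mice on DSS and 402, 189, 752 and 667 in WT mice on water. WT mice on water stood below all other mice, and the other groups overlapped. The ratio of DSS to water was 0.615 in KO mice (adjusted p = 0.332) and 5.91 in WT mice (adjusted p = 0.00178). The log2 interaction was -3.27 (SE 0.69, 95% interval -4.73 to -1.80, adjusted p = 0.00378), 9.62-fold lower in KO mice.

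Different variants made up this group in the 2 genotypes. ASV34 had 82, 81, 75 and 101 counts in KO mice on DSS and none in KO mice on water, against 2170, 1612, 3017 and 1495 in WT mice on DSS and 84, 149, 221 and 57 in WT mice on water. ASV12 had 1361, 2879, 521 and 2184 counts in KO mice on DSS and 2815, 4112, 1262 and 2582 in KO mice on water, against 53, 44, 34 and 55 in WT mice on DSS and none in WT mice on water. The variant that was higher in WT mice on DSS was thus not the main one of KO mice. Of 7 variants of the group tested, 2 passed the interaction higher in KO mice and 1 lower. ASV34 was 1 of the 2 higher, with the opposite sign to its genus (5.39 on the log2 scale, adjusted p = 0.00230). This sign turned to -4.04 (adjusted p of 1.0) with traces set to 0. In percentage points its interaction was -1.93 (adjusted p = 0.00396).

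Roseburia, a butyrate producer of the Lachnospiraceae, fell on DSS in KO mice. It had 0 counts in all 4 KO mice on DSS and 2295, 2583, 3725 and 662 in KO mice on water, against 41, 0, 0 and 14 in WT mice on DSS and 124, 27, 31 and 53 in WT mice on water. KO mice on water held 2.40% ± 1.31 of counts (SD, n = 4), above every other mouse of the study. On DSS it was at least 772-fold lower in KO mice (adjusted p = 0.000119, against a floor of 3 counts per library) and 4.27-fold lower in WT mice (adjusted p = 0.193). Relative to WT, the DSS ratio was at least 181-fold lower in KO mice (adjusted p = 0.00201). Every alternative and every fit without 1 mouse kept the call, and the bound was at least 61.3-fold without WT DSS mouse 1 and at least 287-fold without WT water mouse 1. ASV99, with 43, 1385, 1981 and 0 counts, and ASV189, with 1713, 24, 18 and 36 counts in KO mice on water, had no count in any other group.

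Lachnospiraceae_UCG-010, an uncultured genus of the same family, was rare throughout. It had 0 counts in KO mice on DSS and 0, 6, 9 and 10 in KO mice on water, against 16, 2, 41 and 9 in WT mice on DSS and 3, 9, 6 and 8 in WT mice on water. On DSS it was at least 2.08-fold lower in KO mice (adjusted p = 0.00953), while in WT mice the ratio was 2.62 (adjusted p = 0.360). The DSS ratio was at least 5.45-fold lower in KO mice (adjusted p = 0.0252). Leaving out WT DSS mouse 3 gave a bound of 2.88-fold and an adjusted p of 0.0577, and leaving out WT water mouse 3 gave an adjusted p of 0.0550.

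The family Lachnospiraceae, the main fibre-fermenting and butyrate-forming Clostridia of the colon, fell on DSS in KO mice. It had 25836, 26371, 30122 and 18985 counts in KO mice on DSS and 39247, 41121, 33824 and 35362 in KO mice on water, against 27352, 25120, 27167 and 20809 in WT mice on DSS and 28483, 24281, 21472 and 20623 in WT mice on water. KO mice on water stood above all others, and the other groups overlapped. The ratio of DSS to water was 0.677 in KO mice (adjusted p = 0.00310) and 1.06 in WT mice (adjusted p = 0.663). The interaction was -0.64 (SE 0.21, 95% interval -1.07 to -0.22, adjusted p = 0.0388), or 1.56-fold lower in KO mice. With TMM factors it was -0.39 with an adjusted p of 0.525, and with robust=FALSE the adjusted p was 0.0550. It was called without KO DSS mouse 3, KO water mouse 3 or 4, WT DSS mouse 4 or WT water mouse 1, and not without any other mouse (adjusted p of 0.0518 to 0.106).

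Bifidobacteriaceae, lactic and acetic acid producers represented here by Bifidobacterium, fell on DSS in KO mice. Their counts were 0, 29, 1 and 2 in KO mice on DSS and 420, 635, 1192 and 16 in KO mice on water, against 83, 20, 9 and 49 in WT mice on DSS and 203, 50, 34 and 35 in WT mice on water. They were 70.7-fold lower on DSS in KO mice (adjusted p = 0.00133) and 2.00-fold lower in WT mice (adjusted p = 0.516). As a family the interaction was -5.12 (adjusted p = 0.0471, 35.4-fold lower), and as the genus, adjusted over more groups, it did not pass (adjusted p = 0.0854). The adjusted p was 0.102 with TMM factors, 0.0591 with robust=FALSE, 0.0734 with traces set to 0, 0.0505 without reagent-associated genera and 0.246 in percentage points. The family call held without KO DSS mouse 2, KO water mouse 4 or WT water mouse 1, and in no other fit without 1 mouse (adjusted p of 0.0509 to 0.124). The ratio was 94.3-fold lower without KO DSS mouse 2, 71.8-fold without WT water mouse 1, 22.3-fold without KO water mouse 3 and 22.8-fold without WT DSS mouse 1.

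Ruminococcus, degraders of plant polysaccharides in the Ruminococcaceae, fell on DSS in WT mice. It had 70, 363, 246 and 170 counts in KO mice on DSS and 409, 59, 195 and 575 in KO mice on water, against 25, 91, 36 and 57 in WT mice on DSS and 1087, 2222, 846 and 635 in WT mice on water. WT mice on water stood above all others, and the KO groups overlapped each other. It was 22.9-fold lower on DSS in WT mice (adjusted p = 0.000942), with a ratio of 0.686 in KO mice (adjusted p = 0.650). The interaction was 3.97 (SE 1.05, 95% interval 1.76 to 6.19, adjusted p = 0.0220), a ratio of 15.7. Without WT DSS mouse 3 the adjusted p was 0.0566, and without WT water mouse 2 it was 0.0501.

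Here too the variants differed. ASV77 had 4, 0, 72 and 36 counts in KO mice on DSS and 322, 33, 166 and 342 in KO mice on water, against none in WT mice on DSS and 674, 2043, 686 and 548 in WT mice on water. Its DSS ratio was at least 42.7-fold higher in KO mice (adjusted p = 0.0127), although its mean was lower on DSS in both genotypes. ASV259 had 66, 363, 171 and 134 counts in KO mice on DSS and 14, 26, 29 and 165 in KO mice on water, against 3, 6, 7 and 7 in WT mice on DSS and none in WT mice on water. The Ruminococcus of KO mice on DSS was thus mostly ASV259, and that of WT mice on water mostly ASV77.

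The [Clostridium]_methylpentosum_group, a family of rare Clostridia, was lower on DSS in WT mice. It had 10, 0, 0 and 10 counts in KO mice on DSS and 0, 0, 0 and 12 in KO mice on water, against 0 in WT mice on DSS and 10, 109, 7 and 1 in WT mice on water. As a family its adjusted p was 0.0361, with a DSS ratio at least 17.6-fold higher in KO mice, and as a genus 0.0854. Alternatives ended this call as well, with an adjusted p of 0.0539 with TMM factors, 0.0540 in DESeq2, 0.0590 with robust=FALSE and 0.131 with centred log-ratios. The bound rested on WT water mouse 2, without which it was at least 3.33-fold (adjusted p = 0.166). It was not called without any 1 of 11 mice (adjusted p of 0.0504 to 0.166), and was called without KO DSS mouse 2 or 3, KO water mouse 4 or WT water mouse 3 or 4.

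Helicobacter, spiral bacteria of the mucus layer, abounded in WT mice and was almost without a count in KO mice on water. It had 150, 169, 224 and 158 counts in KO mice on DSS and 0, 0, 0 and 3 in KO mice on water, against 1552, 6656, 5545 and 3935 in WT mice on DSS and 2397, 8585, 7235 and 4903 in WT mice on water. Summed over KO mice, it had 701 counts on DSS and 3 on water, a ratio of 234 with a counting interval of 79.6 to 1140 (adjusted p = 1.12e-05). In WT mice the ratio was 0.765 (adjusted p = 0.701). The log2 interaction was 8.03 (adjusted p = 0.000131), and no fit without 1 mouse lost it. KO mice on DSS held 3.96% of the WT level on DSS, and with traces set to 0 the fitted value was -2.43 (adjusted p = 0.365). That fit removes most of the counts of KO mice on DSS by construction. The family Helicobacteraceae had the same counts and values of 8.03 (adjusted p = 1.47e-06) and, with traces set to 0, -2.43 (adjusted p = 0.258).

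Alloprevotella, fermenters of the Prevotellaceae, and Coriobacteriaceae_UCG-002, an uncultured actinobacterial genus, showed the same form. Alloprevotella had 85, 82, 84 and 88 counts in KO mice on DSS and none in KO mice on water, against 59, 2979, 1717 and 5204 in WT mice on DSS and 2113, 2025, 2712 and 3720 in WT mice on water. The 4 KO mice on DSS were within 6 counts of each other, while WT mice on DSS spread widely. Its DSS ratio was at least 30.0-fold higher in KO mice (adjusted p = 0.00136), and at least 47.1-fold without WT DSS mouse 4. The KO level on DSS was 3.40% of the WT level, and with traces set to 0 the fitted log2 value was 0.07 (adjusted p of 1.0). Coriobacteriaceae_UCG-002 had 17, 13, 16 and 17 counts in KO mice on DSS and none in KO mice on water, against 714, 67, 98 and 577 in WT mice on DSS and 305, 107, 141 and 187 in WT mice on water. The DSS ratio was at least 2.67-fold higher in KO mice (adjusted p = 0.0160), with a KO level of 4.33% of the WT level on DSS. The sign turned in percentage points (-0.17, adjusted p = 0.579) and with traces set to 0 (-0.99, adjusted p of 1.0), and the same held for its single variant, ASV139.

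The mirror case was unclassified Tannerellaceae, relatives of Parabacteroides. They had 190, 551, 446 and 713 counts in KO mice on DSS and 321, 292, 927 and 412 in KO mice on water, against 13, 8, 23 and 9 in WT mice on DSS and none in WT mice on water. The DSS ratio was at least 4.54-fold lower in KO mice (adjusted p = 0.00201), in which DSS and water overlapped. WT mice on DSS held 2.79% of the KO level, and with traces set to 0 the call was lost (adjusted p = 0.287).

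The [Eubacterium]_coprostanoligenes_group, whose namesake reduces cholesterol to coprostanol, rose on DSS in KO mice to a higher share of the WT level. It had 59, 61, 538 and 262 counts in KO mice on DSS and 2, 0, 0 and 0 in KO mice on water, against 232, 933, 1203 and 297 in WT mice on DSS and 444, 93, 263 and 1049 in WT mice on water. KO mice on DSS overlapped with WT mice, and KO mice on water stood below all others. In KO mice the sum was 920 counts on DSS and 2 on water, a ratio of 460 with a counting interval of 127 to 3800 (adjusted p = 0.000138), and in WT mice the ratio was 1.44 (adjusted p = 0.710). With means under 3 counts set to 3, the DSS ratio was 53.2-fold higher in KO mice (adjusted p = 0.00201). It was 29.4-fold without KO DSS mouse 3 and 30.7-fold without WT water mouse 4, and stayed called. The KO level was 34.5% of the WT level on DSS, and with traces set to 0 the adjusted p was 0.00329.

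Its 3 main variants behaved differently. ASV278, which led in KO mice on DSS, had 22, 29, 492 and 228 counts there and none in KO mice on water, against 0, 15, 10 and 0 in WT mice on DSS and 0, 0, 122 and 43 in WT mice on water (interaction adjusted p = 0.0392). ASV171, which led in WT mice on DSS, had 37, 31, 28 and 14 counts in KO mice on DSS and none in KO mice on water, against 46, 840, 942 and 65 in WT mice on DSS and 0, 16, 77 and 0 in WT mice on water (adjusted p = 0.512). ASV200, which led in WT mice on water, had no count in KO mice on DSS or on water, against 0, 0, 0 and 119 in WT mice on DSS and 444, 8, 63 and 997 in WT mice on water. The WT ratio of 1.44 of the whole group thus sums a variant with a higher mean on DSS and one with a lower mean.

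**Figure D3:**
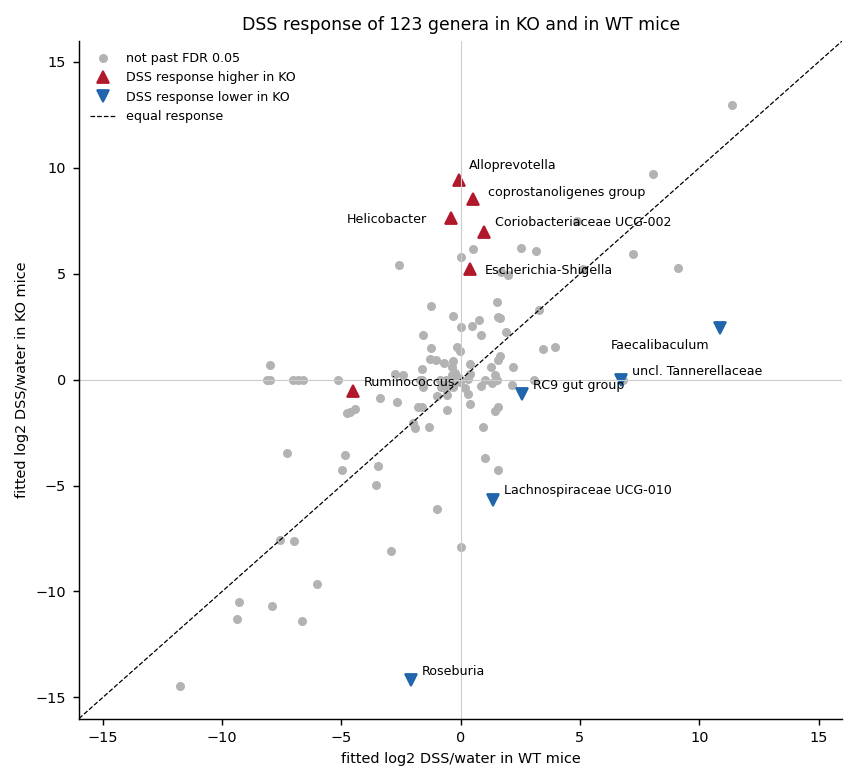
Fitted log2 ratio of DSS to water of 123 genera in KO mice (vertical) against WT mice (horizontal); triangles are the 11 genera with an interaction and the dashed line marks equal responses. Roseburia lies far below the line and Alloprevotella above it; fitted values of genera without a count in a group are not bounds.

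Among families, 24 of 57 changed on DSS in KO mice (42.1%) and 15 in WT mice (26.3%). Prevotellaceae, fermenters of plant and host glycans, were called in every alternative that was run and without any 1 mouse. They had 7897, 10314, 10793 and 13601 counts in KO mice on DSS and 839, 1689, 1297 and 429 in KO mice on water, against 3537, 6069, 4004 and 8964 in WT mice on DSS and 3890, 3496, 4535 and 6009 in WT mice on water. The KO groups did not overlap, and the WT groups did. The family was 10.0-fold higher on DSS in KO mice (adjusted p = 3.91e-07), with a ratio of 1.26 in WT mice (adjusted p = 0.512). Its log2 interaction was 2.99 (SE 0.52, 95% interval 1.91 to 4.07, adjusted p = 0.000195), a ratio of 7.95.

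Within the family, the genus that led in all groups but WT mice on water responded by like folds in both genotypes as a sum. Of its 3 variants tested, 1 passed the interaction, lower in KO mice. Prevotellaceae_UCG-001 had 7811, 10225, 10701 and 13508 counts in KO mice on DSS and 839, 1689, 1297 and 429 in KO mice on water, against 3476, 2091, 2284 and 3748 in WT mice on DSS and 130, 126, 325 and 615 in WT mice on water. It rose 9.93-fold in KO mice (adjusted p = 0.000197) and 9.70-fold in WT mice (adjusted p = 0.000591). Its log2 interaction was 0.03 with a 95% interval of -1.49 to 1.56 (adjusted p of 1.0), which holds a 2-fold difference between genotypes in either direction. On the scale of percentage points, where the higher KO level counts, the interaction was 7.15 points (adjusted p = 0.00495). This genus made up 99.2% of the family in KO mice on DSS and all of it in KO mice on water, against 51.4% in WT mice on DSS and 6.67% in WT mice on water. Alloprevotella made up 44.1% of the family in WT mice on DSS and 58.9% in WT mice on water. Prevotellaceae_NK3B31_group, the third genus, had 1, 7, 8 and 5 counts in KO mice on DSS and none in KO mice on water, against 0, 999, 3 and 12 in WT mice on DSS and 1644, 1345, 1498 and 1674 in WT mice on water (interaction adjusted p = 0.10).

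**Figure D4:**
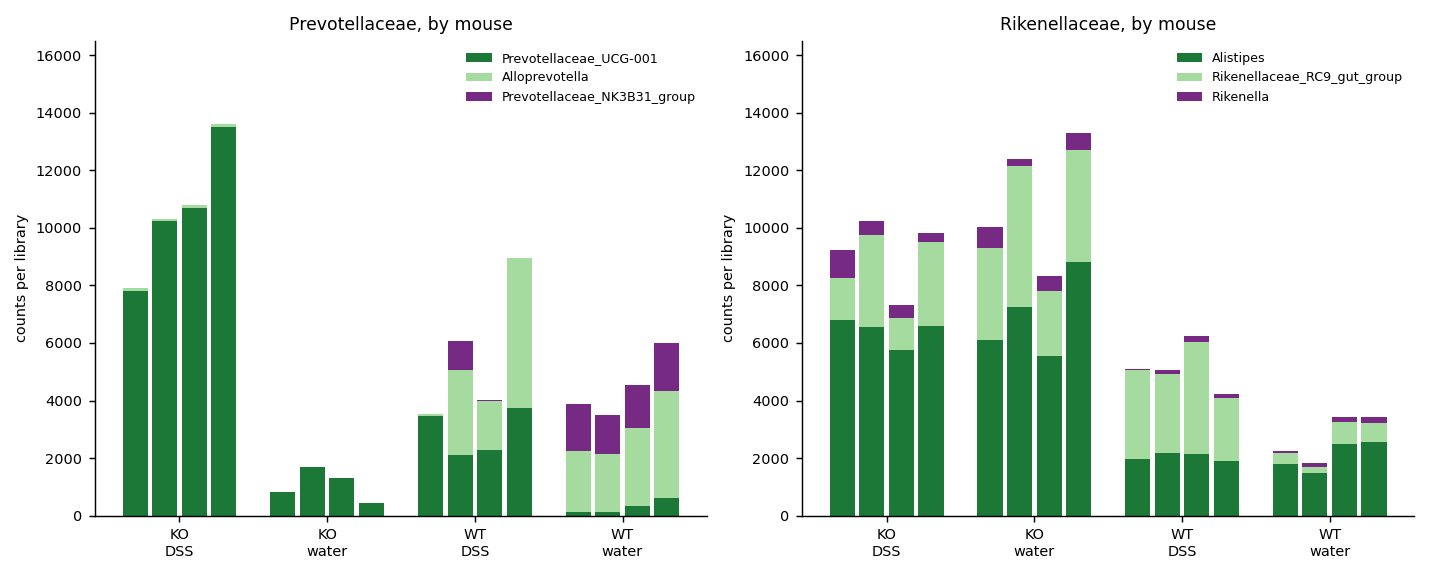
Counts per library of the genera of Prevotellaceae (left) and Rikenellaceae (right), stacked, 1 bar for each mouse. Prevotellaceae_UCG-001 fills nearly all of the bars of KO mice, and the Rikenellaceae_RC9_gut_group part is thinnest in WT mice on water.

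The family Rikenellaceae, to which Rikenellaceae_RC9_gut_group belongs, rose on DSS in WT mice. It had 9227, 10236, 7336 and 9822 counts in KO mice on DSS and 10015, 12378, 8317 and 13299 in KO mice on water, against 5091, 5054, 6236 and 4240 in WT mice on DSS and 2231, 1836, 3417 and 3424 in WT mice on water. The ratio of DSS to water was 0.832 in KO mice (adjusted p = 0.489) and 1.89 in WT mice (adjusted p = 0.00889). The interaction was -1.18 (SE 0.36, 95% interval -1.93 to -0.44, adjusted p = 0.0357), 2.27-fold lower in KO mice. The adjusted p was 0.136 with TMM factors and 0.0698 in percentage points. The call was lost without KO DSS mouse 1 or 3, KO water mouse 1 or 2, WT DSS mouse 1 or 3, or WT water mouse 1 or 2 (adjusted p of 0.0504 to 0.0721). Rikenellaceae_RC9_gut_group made up 23.9% of the family in KO mice on DSS and 32.4% in KO mice on water, against 57.7% in WT mice on DSS and 18.4% in WT mice on water. Alistipes, a bile-tolerant genus, made up 70.1% in KO mice on DSS and 62.9% in KO mice on water, against 39.7% in WT mice on DSS and 76.3% in WT mice on water. Its log2 interaction was -0.09 (95% interval -0.97 to 0.79).

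Parasutterella, asaccharolytic Burkholderiales of the gut, had the lowest p of the genera that did not pass. It had 42, 74, 41 and 83 counts in KO mice on DSS and 285, 310, 502 and 38 in KO mice on water, against 205, 1173, 451 and 588 in WT mice on DSS and 295, 187, 358 and 438 in WT mice on water. All KO mice on DSS lay below all WT mice. It fell 4.73-fold on DSS in KO mice (adjusted p = 0.0230), with a ratio of 1.89 in WT mice (adjusted p = 0.341). The interaction was -3.16 (adjusted p = 0.0583), with an adjusted p of 0.0042 in DESeq2, 0.0414 with median-ratio size factors and 0.0261 with centred log-ratios. The next was unclassified Anaerovoracaceae (adjusted p = 0.0660), with 5, 19, 11 and 0 counts in KO mice on DSS and none in KO mice on water, against 53, 54, 82 and 32 in WT mice on DSS and 24, 24, 11 and 94 in WT mice on water.

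Several genera responded strongly on DSS without a called interaction by fold. Turicibacter, Erysipelotrichales that take up serotonin and modify bile acids, had 541, 2032, 1047 and 410 counts in KO mice on DSS against 328, 227, 373 and 387 in WT mice on DSS, and no count in any mouse on water. It was at least 336-fold higher on DSS in KO mice and at least 110-fold in WT mice (adjusted p = 1.12e-05 and 6.5e-05), so that no ratio between the genotypes can be bounded. Lachnospiraceae_UCG-001 was the reverse, without a count in any mouse on DSS, with 81, 7516, 72 and 3530 counts in KO mice on water and 1610, 33, 99 and 14 in WT mice on water. Its ratio between the genotypes cannot be bounded either. Muribaculum, a mucosal Bacteroidota genus, fell 31.9-fold in KO mice (adjusted p = 0.000197) and 11.8-fold in WT mice (adjusted p = 0.00283), with a log2 interaction of -1.43 (95% interval -3.57 to 0.70, adjusted p = 0.440).

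Akkermansia, the mucin degrader of the Verrucomicrobiota, and Mucispirillum, a mucus dweller of the Deferribacterota, depended on the scale. Akkermansia had 416, 627, 573 and 1343 counts in KO mice on DSS and 0, 0, 3 and 0 in KO mice on water, against 12, 29, 33 and 59 in WT mice on DSS and none in WT mice on water. KO mice on DSS stood above all others. The WT level on DSS was 4.49% of the KO level. It rose in KO mice (adjusted p = 6.01e-05) and in WT mice (adjusted p = 0.000942). The interaction by fold did not pass (1.66, adjusted p of 1.0), while with centred log-ratios it was 3.03 (adjusted p = 0.0244). Mucispirillum had 4066, 1941, 3085 and 2037 counts in KO mice on DSS and 386, 307, 205 and 606 in KO mice on water, against 272, 869, 772 and 1285 in WT mice on DSS and 37, 329, 44 and 616 in WT mice on water. It rose 7.40-fold in KO mice (adjusted p = 0.00953), with a ratio of 3.12 in WT mice (adjusted p = 0.125). Its interaction of 1.25 had a 95% interval of -0.99 to 3.48 (adjusted p = 0.567), and was -0.22 (adjusted p = 0.888) with centred log-ratios.

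Of the shares of 10 phyla, those of these genera had an interaction in percentage points. Verrucomicrobiota held 0.767% ± 0.427 in KO mice on DSS and 0.0013% ± 0.00156 in KO mice on water, against 0.0345% ± 0.0201 in WT mice on DSS and no count in WT mice on water (SD, n = 4 each). The DSS difference was 0.731 points higher in KO mice (SE 0.214, two-sided permutation over 4900 arrangements, adjusted p = 0.00408). On the log2 scale, with 0.01% added to each share, it was 3.94 (permutation adjusted p = 0.00204). Deferribacterota held 2.88% ± 1.04 in KO mice on DSS and 0.390% ± 0.177 in KO mice on water, against 0.8288% ± 0.431 in WT mice on DSS and 0.266% ± 0.286 in WT mice on water. This DSS difference was 1.93 points higher in KO mice (SE 0.586, permutation adjusted p = 0.0102), and on the log2 scale it was 0.672 (permutation adjusted p = 0.798). Campilobacterota, the phylum of Helicobacter, differed the other way round, with 1.59 points (permutation adjusted p = 0.543) and 4.57 on the log2 scale (permutation adjusted p = 0.00204). Bacteroidota and Firmicutes, which held most counts, had interactions of -0.145 points (SE 3.99) and -2.75 points (SE 4.11), with permutation adjusted p of 0.973 and 0.579.

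The most abundant groups mostly had no detectable interaction, but few intervals bound it closely. Of the 30 genera drawn below, 2 had intervals inside -1 to 1 and 25 had intervals reaching past -2 or 2. For unclassified Muribaculaceae, glycan degraders of the mouse gut, the log2 interaction was -0.18 (95% interval -0.82 to 0.46). They fell 1.67-fold in KO mice (adjusted p = 0.0124), with a ratio of 0.675 in WT mice (adjusted p = 0.0510). For unclassified Lachnospiraceae the value was -0.04 (-1.17 to 1.09), and for unclassified Oscillospiraceae, a family of Clostridia, -0.13 (-1.23 to 0.97). Wider intervals were found for Lachnospiraceae_NK4A136_group (-1.13, from -2.50 to 0.25), Bacteroides (-1.22, from -2.55 to 0.10) and Lactobacillus (1.65, from -1.0 to 4.31). Lactobacillus, which ferments sugars to lactic acid, fell 6.47-fold in WT mice (adjusted p = 0.0357), with a ratio of 0.486 in KO mice (adjusted p = 0.468), and this difference between genotypes did not pass (adjusted p = 0.485). Bacteroides, which degrade mucin and dietary glycans, rose 2.70-fold in WT mice (adjusted p = 0.0196), with a ratio of 1.16 in KO mice (adjusted p = 0.846, interaction adjusted p = 0.291).

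**Figure D5:**
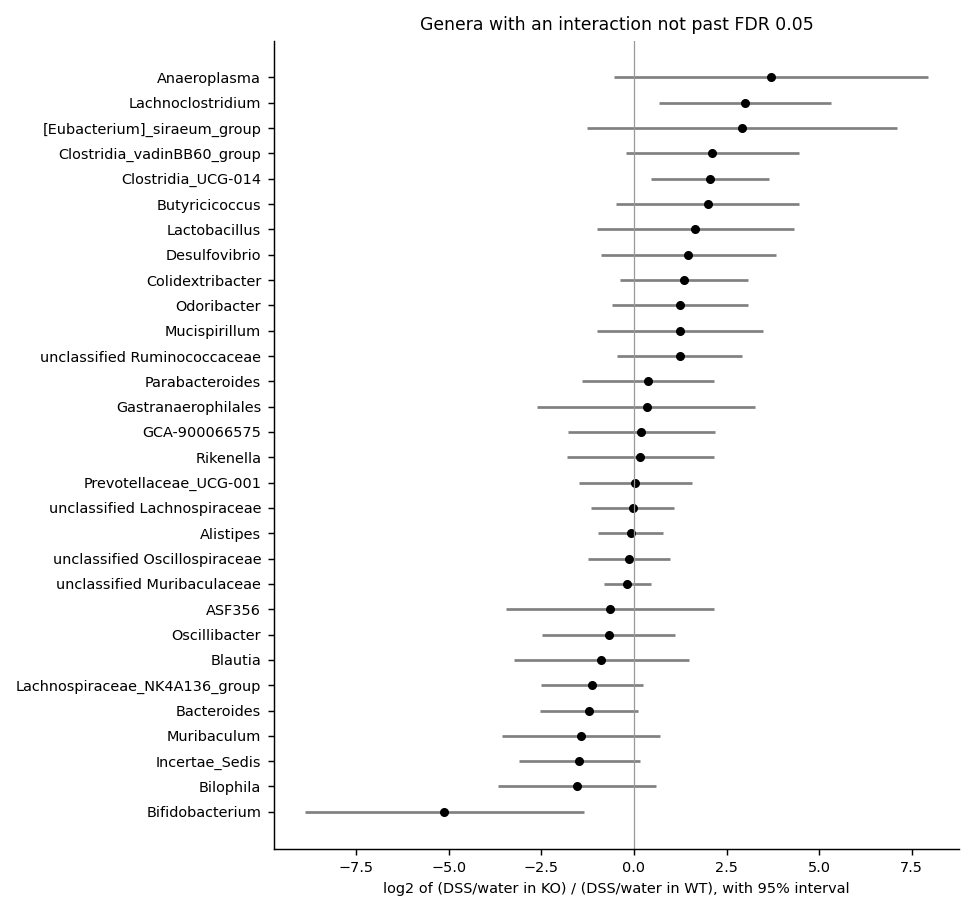
Log2 interaction (DSS to water ratio in KO over that in WT mice) with 95% intervals for 30 genera that were abundant or on a list and did not pass. Of such genera, Akkermansia, Prevotellaceae_NK3B31_group and those with a very large or very small standard error were not drawn. Unclassified Muribaculaceae and Alistipes have intervals inside -1 to 1, and 25 intervals reach past -2 or 2.

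Groups of related genera were described by counts beside the median of 0.375 over all 123 genera, of which 4.88% passed higher and 4.07% lower in KO mice. A list of a few genera in which 1 member passed is not read as standing apart from that background. Of 19 Lachnospiraceae genera, 2 passed lower in KO mice and 0 higher, and 5 of the 19 values were positive, with a median of -1.13. [Eubacterium]_ventriosum_group, [Eubacterium]_xylanophilum_group, A2, Lachnospiraceae_UCG-001, Marvinbryantia and Tyzzerella, all with negative values, had no count on DSS in either genotype. Their ratios between the genotypes cannot be bounded, so the number of negative values is not read as a response of the family. Of 21 genera of Oscillospiraceae and Ruminococcaceae, the other large families of anaerobic Clostridia, 1 passed higher and 0 lower, 15 values were positive and the median was 1.35. Of 7 butyrate producers, Roseburia passed lower and the median was -3.82, though Butyricicoccus (1.99, adjusted p = 0.360) and Odoribacter (1.25, adjusted p = 0.440) had positive values. That median is the fitted value of Anaerostipes (adjusted p = 0.485), which had no count in WT mice on water and a mean of 0.000777% in KO mice on water. The 7 together held 3.31% ± 1.57 in KO mice on DSS and 3.98% ± 0.773 in KO mice on water. In WT mice they held 4.24% ± 1.93 on DSS and 2.9% ± 1.2 on water (SD, n = 4 each). Odoribacter rose 4.28-fold on DSS in KO mice (adjusted p = 0.0171), with a ratio of 1.81 in WT mice (adjusted p = 0.314).

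The summed shares of these groups moved as follows. Lachnospiraceae held 26.3% ± 4.81 in KO mice on DSS and 38.8% ± 3.50 in KO mice on water, against 26.0% ± 3.15 in WT mice on DSS and 24.6% ± 3.67 in WT mice on water (SD, n = 4 each). Oscillospiraceae and Ruminococcaceae together held 14.2% ± 4.30 in KO mice on DSS and 8.84% ± 2.06 in KO mice on water, against 9.07% ± 2.32 in WT mice on DSS and 6.98% ± 1.81 in WT mice on water.

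Of 5 oxygen-tolerant genera, against 8.94% of all genera in either direction, Escherichia-Shigella passed higher in KO mice. The list held 0.540% ± 0.0869 in KO mice on DSS and 0.0428% ± 0.0220 in KO mice on water, against 0.0311% ± 0.00923 in WT mice on DSS and 0.647% ± 0.688 in WT mice on water (SD, n = 4 each). Its median of 3.19 is the fitted value of Jeotgalicoccus, which had no count in KO mice on DSS and a mean of 0.000259% in KO mice on water, against 0.000777% in WT mice on DSS and 0.0246% in WT mice on water. Corynebacterium (7.02) had no count in KO mice, and held 0.000518% in WT mice on DSS and 0.0837% in WT mice on water. Staphylococcus, a skin and gut coccus on that list, had no count in KO mice on DSS and 41, 25, 30 and 0 in KO mice on water, against 5, 0, 0 and 5 in WT mice on DSS and 1313, 130, 171 and 369 in WT mice on water. Of 8 Erysipelotrichales, Faecalibaculum passed lower and the median was 1.09. In 5 uncultured and wall-less lineages no member passed, all 5 values were positive and the median was 2.12. Among these, Clostridia_UCG-014 rose 7.02-fold in KO mice (adjusted p = 0.00102), with a ratio of 1.69 in WT mice (interaction 2.05, 95% interval 0.46 to 3.65, adjusted p = 0.10). Clostridia_vadinBB60_group rose 12.6-fold in KO mice (adjusted p = 0.00330), with a ratio of 2.89 in WT mice (interaction 2.12, adjusted p = 0.291). Anaeroplasma, which lacks a cell wall, rose 76.1-fold in KO mice (adjusted p = 0.00953), with a ratio of 5.75 in WT mice (interaction 3.70, adjusted p = 0.319). Gastranaerophilales, also of these lineages, had an interaction of 0.34 (95% interval -2.61 to 3.28), under the median of 0.375 over all genera.

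Of 6 Coriobacteriia, 1 passed higher, with a median of 1.02. Of 3 Prevotellaceae, Alloprevotella passed higher (median 8.03), and of 3 Rikenellaceae, Rikenellaceae_RC9_gut_group passed lower (median -0.09). The 8.03 is the fitted value of Prevotellaceae_NK3B31_group, which had no count in KO mice on water, while Prevotellaceae_UCG-001 had 0.03. Of 2 Tannerellaceae, the unclassified group passed lower, while Parabacteroides had a value of 0.37 (95% interval -1.40 to 2.15). Of 3 mucus-associated genera, Helicobacter passed higher, with a median of 3.85. That median is the fitted value of Candidatus_Arthromitus (adjusted p = 0.199), which had no count in WT mice on DSS, while Mucispirillum had 1.25. No member passed among the 2 lactobacilli and bifidobacteria (median -1.74), 2 Muribaculaceae (-0.80), 2 mucin degraders (0.22), 3 Desulfovibrionaceae (-1.55) and 4 reagent-associated genera (-0.27). The reagent-associated genera summed to 0.0158% ± 0.0167 in KO mice on DSS and 0.00544% ± 0.00510 in KO mice on water, against 0.00466% ± 0.00354 in WT mice on DSS and 0.0013% ± 0.00259 in WT mice on water.

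Single variants carried interactions that the genus sums did not show. Of the 59 ASVs with an interaction, 52 had no count in at least 1 group: 26 in KO mice on water, 20 in WT mice on water, 3 in KO mice on DSS and 5 in WT mice on DSS, some in more than 1. The other 7 had counts in every group. Beside the 5.59% of all ASVs that passed, 17 of 140 did among unclassified Muribaculaceae (12.1%), 9 higher and 8 lower in KO mice. Bacteroides had 4 of 20 (20.0%) and Alistipes 3 of 25 (12.0%). Lachnospiraceae_NK4A136_group, with 4 of 50 (8.0%), lay near that share, and unclassified Lachnospiraceae, with 5 of 200 (2.5%), under it. With traces set to 0, 23 ASVs passed, of which 19 were among the 59.

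ASV117, of the unclassified Muribaculaceae, had no count in KO mice on DSS and 185, 234, 278 and 315 in KO mice on water, against 760, 281, 305 and 337 in WT mice on DSS and 24, 27, 25 and 31 in WT mice on water. It was thus lost on DSS in KO mice and higher on DSS in every WT mouse. Its DSS ratio was at least 1330-fold lower in KO mice (adjusted p = 9.5e-06). Other variants of the lowest p were those found in 1 genotype on water. ASV5 had 94, 78, 102 and 133 counts in KO mice on DSS and none in KO mice on water, against 1902, 4450, 2645 and 3401 in WT mice on DSS and 4817, 3392, 4818 and 4153 in WT mice on water (at least 47.0-fold higher, adjusted p = 6.35e-06). ASV14 had 1457, 2492, 770 and 2164 counts in KO mice on DSS and 3040, 2622, 1854 and 1960 in KO mice on water, against 46, 40, 31 and 34 in WT mice on DSS and none in WT mice on water (at least 17.3-fold lower, adjusted p = 2.6e-05). Both lay in the trace range described above. ASV35 and ASV131 reached higher levels. ASV35 had 584, 360, 562 and 675 counts in KO mice on DSS and 817, 992, 1057 and 2939 in KO mice on water, against 319, 85, 115 and 130 in WT mice on DSS and none in WT mice on water. ASV131 had 86, 110, 45 and 102 counts in KO mice on DSS and 595, 185, 829 and 393 in KO mice on water, against 106, 66, 43 and 64 in WT mice on DSS and none in WT mice on water.

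The mean number of ASVs per mouse was 528.2 in KO mice on DSS and 492.0 in KO mice on water, against 530.2 in WT mice on DSS and 627.5 in WT mice on water, so that the genotypes were closer on DSS than on water. Per mouse it was 514, 525, 540 and 534 in KO mice on DSS and 497, 479, 498 and 494 in KO mice on water, against 508, 537, 412 and 664 in WT mice on DSS and 593, 665, 648 and 604 in WT mice on water. The KO groups did not overlap. The DSS difference was 133.5 ASVs higher in KO mice (SE 55.2, two-sided permutation p = 0.0265). It was 94.1 without WT DSS mouse 3 (permutation p = 0.0608), and the permutation p was 0.0539 to 0.0665 without any 1 of the KO mice on DSS. The Shannon index, which weighs how evenly counts are spread, averaged 4.65 ± 0.0449 in KO mice on DSS and 4.94 ± 0.0640 in KO mice on water, against 4.44 ± 0.257 in WT mice on DSS and 4.85 ± 0.0494 in WT mice on water (SD, n = 4 each). Its interaction was 0.125 (SE 0.136, permutation p = 0.397). Without WT DSS mouse 4, whose index of 4.81 was the highest of its group, it was 0.248 (permutation p = 0.00449).

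Over whole communities the interaction took a share of the squared Bray-Curtis distance of 0.117 on ASVs (permutation p = 0.0041) and 0.0859 on genera (permutation p = 0.0171). Genotype took 0.446 and treatment 0.170 on ASVs, and 0.266 and 0.314 on genera. Pairs of 1 KO and 1 WT mouse were on average 0.815 apart on DSS and 0.849 on water by ASVs, and 0.844 on DSS with traces set to 0. Jaccard distances on presence (0.674 on DSS and 0.814 on water) and Aitchison distances (94.6 on DSS and 119.7 on water) were also smaller on DSS by ASVs. By genera the direction depended on the measure: Bray-Curtis distances were 0.380 on DSS and 0.338 on water, while Jaccard distances were 0.269 on DSS and 0.362 on water and Aitchison distances 21.7 on DSS and 29.96 on water. Without KO water mouse 2 the share of the interaction on genera was 0.0753 (permutation p = 0.0502). KO mice on DSS lay 0.666 from KO mice on water and WT mice on DSS 0.624 from WT mice on water by ASVs, and both 0.375 by genera. Other measures gave other orders. By ASVs the distance was 0.622 in KO mice and 0.660 in WT mice with Jaccard, and 85.5 in KO mice and 89.0 in WT mice with Aitchison. By genera it was 0.389 in KO mice and 0.347 in WT mice with Jaccard, and 31.4 in KO mice and 27.6 in WT mice with Aitchison. These differences between genotypes were not tested on their own.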

How the data were processed

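Colonic 16S profiles of 16 mice were used, 4 in each of 4 groups named by the sample titles. Both of the 2 deposited tables hold identical whole-number counts per ASV, and 1 adds taxonomy. The authors had made the deposited counts even at 96469 per library, per the file headers, so depth before that step is unknown. The sources used here do not name the amplicon region, ASV caller or taxonomy database. RNA extraction and poly(A) libraries, per the labels' protocols, do not describe 16S counts, so the template (DNA or RNA) is unsettled. The titles name each sample as an individual, and cages and litters are not given.

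Counts were summed per genus and family, and unnamed ASVs under their lowest named rank. Taxa with a total of 10 or more counts in 3 or more libraries were tested under R 4.3.3 by the quasi-likelihood test of edgeR 4.0.16 (robust=TRUE) on all 16 libraries, with 1 mean per group and the library total as the only scaling. Benjamini-Hochberg adjustment ran over all taxa of a level, with an FDR of 0.05. A fold is the ratio of mean counts. Against a group without counts it is a bound on a floor of 3 counts per library, and interaction ratios set means under 3 counts to 3. Counting intervals are exact binomial intervals of the summed counts at 95% and, like the floor, cover counting error only.

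Diversity (Shannon index, natural log) and phylum shares were tested over 4900 arrangements of genotype within treatment on residuals of the additive fit, studentised and two-sided, an approximate test whose smallest p is 0.000408. Communities were tested with adonis2 of vegan 2.7.1 and 10000 permutations. Alternatives were TMM, median-ratio size factors, limma 3.58.1 on percentage points and on centred log-ratios (pseudocounts of 0.5 and 1), DESeq2 1.42.0, a minimum of 6 libraries or none, a replicate block, robust=FALSE, traces set to 0, reagent-associated genera left out and each mouse left out. The edgeR fit and the permutation test were tested on simulated data. Python 3.11.15, numpy 2.4.6, scipy 1.17.1, pandas 2.3.3 and matplotlib 3.10.9 were also used.

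The members, the 16 taxon lists, the tests and traces set to 0 were chosen with earlier results of these data known. Named taxa were all genera and families past the threshold, the 5 lowest p among genera that did not pass, the 10 most abundant genera, list members whose mean reached 0.5% in a group, up to 3 main ASVs of each genus past the threshold, and the 5 ASVs per direction with the lowest p. Mice of the same number did not deviate together, so numbers were not taken to pair mice. Chi-square per degree of freedom between libraries of a group was 50.8 to 167, so none was a duplicate.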

Additional observations from a re-analysis of the deposited data

Results flagged for a closer look

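The DSS effect differed between KO and WT mice in 11 genera, with fitted log2 differences (KO minus WT) of 8.03 for Helicobacter, 9.49 for Alloprevotella, 8.00 for the [Eubacterium]_coprostanoligenes_group, 6.01 for Coriobacteriaceae_UCG-002, 4.83 for Escherichia-Shigella, 3.97 for Ruminococcus, -3.27 for Rikenellaceae_RC9_gut_group, -6.78 for unclassified Tannerellaceae, -7.04 for Lachnospiraceae_UCG-010, -8.39 for Faecalibaculum and -12.09 for Roseburia. Where a group has no count, such a value depends on the fit and is no bound. In families it differed by 8.03 for Helicobacteraceae, 8.00 for the [Eubacterium]_coprostanoligenes_group, 8.71 for the [Clostridium]_methylpentosum_group, 4.70 for Enterobacteriaceae, 2.99 for Prevotellaceae, -0.64 for Lachnospiraceae, -1.18 for Rikenellaceae and -5.12 for Bifidobacteriaceae. Single values that differed were the number of ASVs (133.5), the shares of Deferribacterota (1.931 points) and Verrucomicrobiota (0.7311 points), and the community share of the interaction (0.1166 on ASVs, 0.08594 on genera).

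One mouse lay apart from the other 3 of its group in 19 of 142 groups of counts checked, where chance flags about 1 in 20. In KO mice on DSS these were Blautia in mouse 1 (370 counts, high), Colidextribacter in mouse 2 (1010, low), Lachnoclostridium (936, high) and Gastranaerophilales (283, high) in mouse 3, and Butyricicoccus (1407, high) and Desulfovibrio (810, low) in mouse 4. In KO mice on water mouse 4 was apart in GCA-900066575 (1327, high), Butyricicoccus (631, high), Bilophila (90, low), Desulfovibrio (2253, high) and Clostridia_vadinBB60_group (647, high), and mouse 1 in Lachnospiraceae_NK4A136_group (19615, high). In WT mice on DSS they were Prevotellaceae_NK3B31_group (999, high) and unclassified Oscillospiraceae (4822, high) in mouse 2, and unclassified Muribaculaceae (11590, low) and Bacteroides (10970, high) in mouse 3. In WT mice on water they were Lachnoclostridium (199, low) and Lachnospiraceae_UCG-001 (1610, high) in mouse 1 and Anaeroplasma (430, high) in mouse 2. Among phylum shares, 1 mouse was apart in Cyanobacteria of KO mice on DSS (0.2934%) and in Desulfobacterota of KO mice on water (2.672%).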

How the results depend on the processing

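Of the 11 genera, all were called with TMM, median-ratio size factors, DESeq2, centred log-ratios, either filter, robust=FALSE and without reagent-associated genera, but only Escherichia-Shigella, Roseburia and Rikenellaceae_RC9_gut_group in percentage points. DESeq2 called 19 genera, centred log-ratios 29 and 28 (pseudocounts of 0.5 and 1), and traces set to 0 with centred log-ratios, chosen after seeing the data, 26. Families numbered 4 with TMM, 5 with robust=FALSE, 17 and 18 with centred log-ratios (6 and 7 of them among the 8), and 7 in percentage points, where only 3 of the 8 were kept. ASVs numbered 131 with DESeq2 (58 of them among the 59), 299 and 301 with centred log-ratios (52 among the 59 in each), 117 in percentage points (only 5 among the 59) and 23 with traces set to 0 (19 among the 59). The cause of these differences was not tested. Signs turned for Helicobacter and Helicobacteraceae with traces set to 0 (-2.43), and for Coriobacteriaceae_UCG-002 and ASV139 (-0.17 in percentage points, -0.99 with traces set to 0) and ASV34 (-1.93 and -4.04). The turns with traces set to 0 follow from the construction of that fit and are not read against the calls. The inverse Simpson index gave -10.85 in place of the Shannon interaction (permutation p = 0.200), and the log2 share of Deferribacterota 0.6717. Leaving out 1 mouse gave 7 to 18 genera, 3 to 13 families and 45 to 67 ASVs. Families numbered 3 without KO DSS mouse 1, KO water mouse 2, WT DSS mouse 1 or WT DSS mouse 3, 4 without KO water mouse 1 or WT water mouse 2, 5 without KO DSS mouse 4, WT DSS mouse 2 or WT water mouse 3, and 13 without KO water mouse 4. It gave 0.06363 to 0.2482 for Shannon, 94.08 to 178.1 ASVs, 1.488 to 2.222 points for Deferribacterota, 0.5226 to 0.8429 for Verrucomicrobiota, and 0.1119 to 0.1246 (ASVs) and 0.07526 to 0.0989 (genera) for communities.

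Of 24 pairs of mice with the same number, 4 had deviations correlated above 0.1 (range -0.187 to 0.19), and 2 of 16 libraries correlated best with their own number, so the number is not a pairing. With a replicate block 9 genera, 8 families and 58 ASVs passed. Ruminococcus (adjusted p = 0.0539), Faecalibaculum and Lachnospiraceae_UCG-010 (0.0722 each) did not, and Prevotellaceae_NK3B31_group did (0.0237). Among values of single taxa and of DSS or genotype effects over all settings, 2339 kept direction and side of the threshold, 146 were no longer past it, 45 newly passed, 119 moved without a call and 8 reversed. Depth limits statements on rare taxa to shares above 0.00311%.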
